A study of Mus musculus with 21 samples.

Results

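The interleukin 1 (IL-1) family genes examined here were 8 of the 55487 genes counted: the agonist genes Il1a, Il1b and Il18, the antagonist gene Il1rn, the binding protein gene Il18bp, the signalling receptor genes Il1r1 and Il1rap, and the decoy receptor gene Il1r2. They were chosen by name, by matching their Ensembl identifiers to symbols, by a rule that uses no expression value, although earlier results of these data were known when they were chosen. RNA came from microglia, the resident macrophages of the brain, sorted from the striatum of male mice aged 8 to 10 weeks as live cells positive for CD11b and P2RY12 with low CD45. Some mice had control mothers and others had mothers exposed to maternal immune activation (MIA); the sources used here name neither the agent that induced it nor the strain. Each received saline or lipopolysaccharide (LPS), a bacterial cell wall component, by intraperitoneal injection at 4500 endotoxin units per gram of body weight, and cells were taken 18 hours later. The groups compared were control offspring after saline (6 libraries), control offspring after LPS (5), MIA offspring after saline (5) and MIA offspring after LPS (3), all labelled batch 1, with no word in the labels on what batch means. A further MIA LPS library (replicate 4) formed batch 2 by itself, and a further MIA saline library (replicate 6) was titled excluded by the submitters; both are given apart from the groups. Litter is not labelled, so p-values cover only the variation from library to library. A second number in the ID labels, whose meaning is not stated, is shared between libraries: it takes 6 values among the control and 3 among the MIA libraries of batch 1, and 0 values occur in both. If it marks a dam or litter, maternal group and that source cannot be told apart.

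IL-1 alpha and IL-1 beta bind the receptor encoded by Il1r1, which then recruits the accessory protein encoded by Il1rap and signals through MyD88 towards NF-kB. Several brakes act on this step: the antagonist encoded by Il1rn occupies the receptor without recruiting the accessory protein, the decoy encoded by Il1r2 binds ligand but lacks the intracellular signalling domain, and a soluble binding protein, encoded by Il18bp, captures IL-18. IL-1 beta and IL-18 are made as precursors that caspase-1 cleaves in the inflammasome, whereas IL-1 alpha is already active as a precursor, and microglia are a main source of IL-1 in the brain.

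After LPS, 7 of the 8 genes rose in control offspring and the same 7 rose in MIA offspring, with Il18 the exception in both. Among all 14741 genes tested, 23.3% were called higher and 21.3% lower in control offspring, 44.6% in all (edgeR quasi-likelihood test, Benjamini-Hochberg adjusted p under 0.05). In MIA offspring 20.8% were called higher and 18.3% lower, 39.1% in all. The median log2 fold change of the 8 genes was 2.20 in control and 2.00 in MIA offspring, beside -0.00 and 0.02 over all genes tested. For each of the 7 genes, every LPS library lay above every saline library of the same maternal group. No IL-1 family gene was called for a difference between MIA and control offspring.

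Total counts of the batch 1 libraries ranged from 9.85 to 19.0 M, with 17995 to 19559 genes having a count. Total counts are given in mega-counts (M), and levels as CPM, the count divided by the TMM-scaled total in M. The sorted cells carried microglial transcripts. In control offspring the 10 microglial marker genes summed to between 12950 and 17741 CPM after saline and to between 5052 and 6439 CPM after LPS. In either maternal group 9 of the 10 were called lower after LPS, beside 21.3% (control) and 18.3% (MIA) of all genes tested. Markers of other cells moved with the treatment as well. Of 14 neutrophil markers 11 were tested, and 9 rose in control and 11 in MIA offspring. Of 9 monocyte markers, 8 rose and 1, Ccr2, fell in both. Over all genes tested, 23.3% were called higher in control and 20.8% in MIA offspring. In bulk samples, fewer cells of a type and less RNA per cell cannot be told apart.

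**Figure D1:**
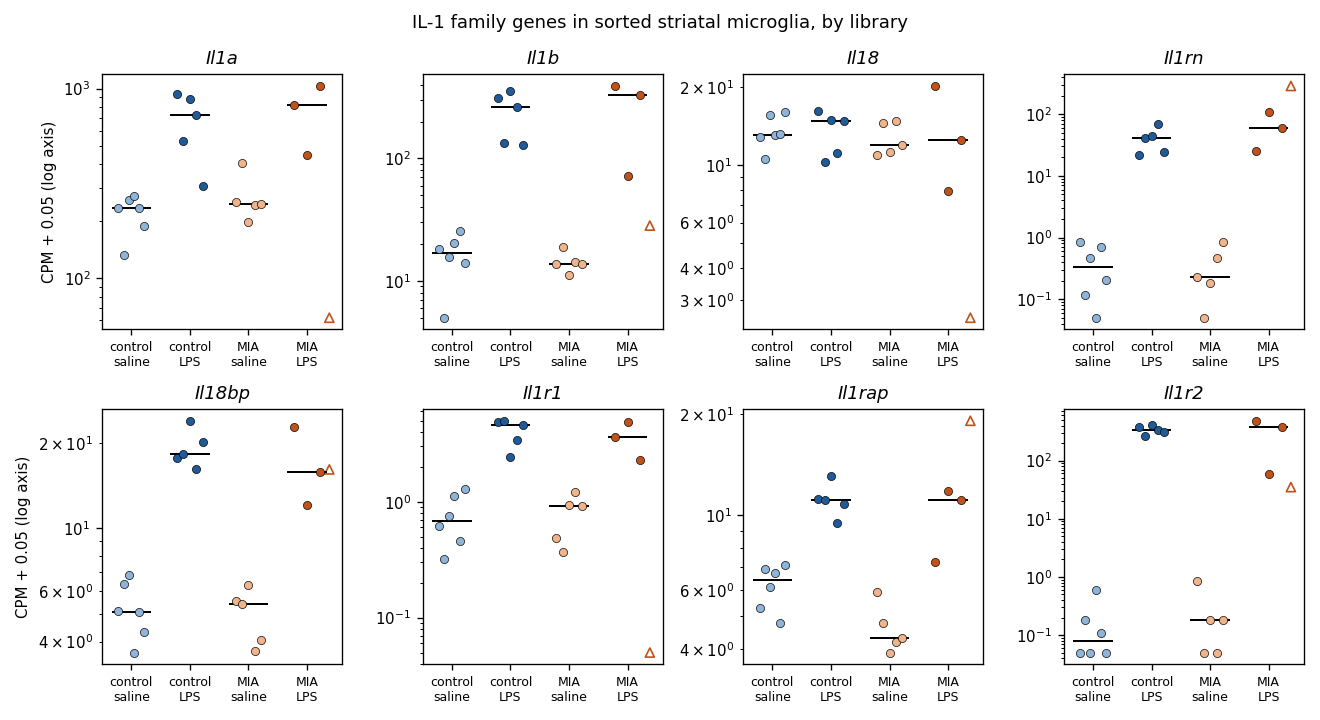
CPM of each IL-1 family gene in every library (log axis, 0.05 CPM added so that libraries at 0 can be drawn), with a bar at each group's median; circles are batch 1 libraries and open triangles the single batch 2 library. Within each maternal group the LPS circles lie above the saline circles in 7 panels, and in the Il18 panel the groups overlap.

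The promoter stretches of 3 genes are printed because these genes, the agonists Il1a and Il1b and the antagonist Il1rn, lie on the same chromosome and rose together, while their stretches share few short motifs. All 8 genes had an entry in the RefSeq promoter table for GRCm38.p6, with 11 windows among them. Each window holds the 250 bases before an annotated start, and capitals mark matches to the searched motifs; the 7 bases of the Il1rn window that lie inside the annotated gene are left off.
Il1a chr2:129309973-129310222, minus strand: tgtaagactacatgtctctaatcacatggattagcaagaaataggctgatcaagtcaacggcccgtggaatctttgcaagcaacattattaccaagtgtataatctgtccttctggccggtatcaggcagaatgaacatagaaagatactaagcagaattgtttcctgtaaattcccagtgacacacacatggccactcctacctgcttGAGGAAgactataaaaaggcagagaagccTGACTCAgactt
Il1b chr2:129371140-129371389, minus strand: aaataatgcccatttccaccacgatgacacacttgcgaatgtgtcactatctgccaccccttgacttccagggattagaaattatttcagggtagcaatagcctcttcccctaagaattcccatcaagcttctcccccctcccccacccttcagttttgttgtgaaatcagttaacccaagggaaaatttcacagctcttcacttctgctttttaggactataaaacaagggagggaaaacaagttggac
Il1rn chr2:24336610-24336852, plus strand: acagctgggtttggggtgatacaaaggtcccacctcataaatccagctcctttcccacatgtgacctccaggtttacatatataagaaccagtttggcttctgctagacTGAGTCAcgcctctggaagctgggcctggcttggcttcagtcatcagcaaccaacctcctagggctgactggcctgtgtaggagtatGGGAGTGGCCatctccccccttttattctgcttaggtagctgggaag

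The motifs were searched on both strands as GGG and CC with any 5 bases between them for NF-kB, TTGCNNAA for C/EBP, GAGGAA for ETS factors including PU.1, TGACTCA or TGAGTCA for AP-1, and a pair of GAAA with any 2 bases between for IRF. The Il1a stretch held GAGGAA at -41 to -36 and TGACTCA at -12 to -6, counted back from the start site. In the Il1rn stretch TGAGTCA lay at -141 to -135 and an NF-kB pattern, GGGAGTGGCC, at -54 to -45. The Il1b stretch held none of these letters, nor did the window of Il1r2, which lies inside the annotated Il1r2 gene, before a downstream start, and is not printed. Over all windows of the 8 genes, the NF-kB pattern matched in 3 genes, the C/EBP pattern in 2, the AP-1 letters in 2, GAGGAA in 1 and the IRF pattern in 0. Among 32851 promoter windows of the same length, 45.8% held the NF-kB pattern, 9.56% the C/EBP pattern, 23.3% GAGGAA, 4.46% the AP-1 letters and 2.98% the IRF pattern. These are shares of single windows, whereas a gene was counted for a match in any of its windows, so the figures differ in unit. A match describes letters in a window and not a bound site, and no match says nothing of regulation from elsewhere.

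Il1a, on chromosome 2 of GRCm38 (129299610 to 129309972, minus strand), was the most highly expressed family member per kilobase of exon in every group. In control offspring its saline libraries ran from 133 CPM (lowest) through 235 (median) to 270.4 (highest), and the LPS libraries stood at 938, 527, 885, 726 and 307 CPM. MIA saline libraries had 253, 406, 197, 243 and 246 CPM, and MIA LPS libraries 820.3, 448 and 1033 CPM. The highest saline library, MIA saline replicate 2, stayed below the lowest MIA LPS library, so neither pair of groups overlapped. The log2 fold change was 1.62 ± 0.27 (SE, edgeR adjusted p = 4.13e-05) in control and 1.51 ± 0.31 (SE, edgeR adjusted p = 0.000577) in MIA offspring. A noncoding gene on the opposite strand, Gm14023, shares 222 exonic bases with Il1a, and the sources used here do not say whether counting used strand. Gm14023 went from 45.4 to 104 CPM in control offspring (1.19 ± 0.27, edgeR adjusted p = 0.00106) and from 65.1 to 127 CPM in MIA offspring (0.96 ± 0.31, edgeR adjusted p = 0.0198), so reads of the shared bases cannot be assigned.

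Il1b lies close by on the same chromosome and strand (129364570 to 129371139) and encodes the agonist that caspase-1 activates. Control saline libraries spanned 4.95 to 25.5 CPM with a median of 16.9, whereas the control LPS libraries reached 309, 134, 357, 264 and 128 CPM. In MIA offspring the saline values were 13.8, 18.8, 11.1, 14.1 and 13.7 CPM and the LPS values 390.4, 72.2 and 332 CPM. Every LPS library was thus well above every saline library, although MIA LPS replicate 2 was far below the other 2 of its group. Il1b rose by 3.85 ± 0.45 on the log2 scale (SE, edgeR adjusted p = 2.17e-06) in control offspring, and by 4.21 ± 0.52 (edgeR adjusted p = 5.60e-06) in MIA offspring. The estimate for Il1b was higher than for Il1a in both maternal groups, a difference that was not tested, and 221 of the 14741 genes had a higher fold change in control offspring. The antisense transcript Il1bos shares 25 exonic bases with Il1b; it had 0.633 CPM after saline and 0.564 CPM after LPS in control offspring and was not called.

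Il18, on chromosome 9 (50554827 to 50581840, plus strand), encodes the agonist that induces interferon gamma in lymphocytes, and it did not pass the test in either maternal group. Its control saline libraries ranged from 10.5 to 16.0 CPM around a median of 13.1, and its control LPS libraries were at 16.1, 10.2, 14.8, 11.1 and 14.8 CPM. MIA saline libraries held 10.9, 14.5, 11.2, 14.7 and 11.9 CPM and MIA LPS libraries 20.2, 7.88 and 12.5 CPM. LPS and saline libraries were interleaved throughout. The log2 fold change was -0.01 ± 0.19 (edgeR adjusted p = 0.976; 95% interval -0.41 to 0.40) in control offspring and 0.09 ± 0.23 (edgeR adjusted p = 0.789; 95% interval -0.40 to 0.58) in MIA offspring. These intervals leave room for modest changes in either direction.

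Among the genes that oppose IL-1 and IL-18, Il1rn, on chromosome 2 (24336853 to 24351494, plus strand), encodes the receptor antagonist and was close to absent after saline. The control saline libraries had from 0 to 0.790 CPM with a median of 0.286, a total of 34 counts over the 6 libraries. After LPS the control libraries had 22.05, 41.8, 44.2, 69.8 and 24.04 CPM. In MIA offspring the values were 0.175, 0, 0.135, 0.413 and 0.799 CPM after saline, and 25.7, 107 and 60.4 CPM after LPS. Even the lowest LPS library exceeded the highest saline library by over an order of magnitude. Il1rn rose by 6.73 ± 0.58 (log2, SE, edgeR adjusted p = 4.40e-08) in control and by 7.61 ± 0.67 (edgeR adjusted p = 9.28e-08) in MIA offspring, and 58 and 49 genes respectively had a higher fold change. The saline counts were few, and the size of the change was 7.76 by limma-voom in control offspring and 8.36 in MIA offspring without MIA saline replicate 5. The counts are per gene and do not separate the secreted from the intracellular forms of the antagonist.

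Il18bp, on chromosome 7 (102014885 to 102018690, minus strand), encodes the soluble protein that binds IL-18. In control offspring it spanned 3.61 to 6.81 CPM after saline (median 5.05), and measured 17.7, 18.2, 23.9, 16.2 and 20.03 CPM after LPS. MIA saline libraries had 5.52, 5.38, 6.28, 3.65 and 4.00 CPM, and MIA LPS libraries 22.7, 12.01 and 15.7 CPM. No LPS library reached down to a saline value. The rise was 1.88 ± 0.19 (log2, SE, edgeR adjusted p = 1.18e-08) in control offspring and 1.76 ± 0.23 (edgeR adjusted p = 7.59e-07) in MIA offspring. Numa1, on the opposite strand, shares 80 exonic bases with Il18bp and fell (-0.92 in control and -1.34 in MIA offspring on the log2 scale, edgeR adjusted p = 3.16e-06 and 5.14e-07), opposite to Il18bp.

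Il1r1, on chromosome 1 (40225080 to 40317257, plus strand), encodes the signalling receptor of IL-1 and was the least abundant member per kilobase after LPS. Control saline libraries held 0.267 to 1.24 CPM (median 0.630; 61 counts in all) and control LPS libraries 4.77, 4.93, 2.39, 3.35 and 4.57 CPM. MIA saline libraries were at 0.438, 0.321, 0.878, 1.17 and 0.866 CPM, and MIA LPS libraries at 3.55, 4.85 and 2.25 CPM. The groups did not overlap, at levels resting on few counts. Il1r1 rose by 2.51 ± 0.38 (log2, SE, edgeR adjusted p = 5.88e-06) in control and 2.24 ± 0.45 (edgeR adjusted p = 0.000234) in MIA offspring. Il1r1 is also expressed by endothelial cells. The 8 endothelial and mural markers summed to between 19.1 and 26.8 CPM after saline and between 8.31 and 15.1 CPM after LPS in control offspring, but most of this was Pecam1, which macrophages also express and which was called lower (19.1 to 8.66 CPM on average). The other 4 tested markers were not called: Flt1 averaged 0.828 and 1.10 CPM, Rgs5 0.537 and 0.541, Cdh5 0.330 and 0.272 and Cldn5 0.683 and 0.581 CPM. Their part in the Il1r1 response was not tested.

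Il1rap, on chromosome 16 (26581704 to 26730117, plus strand), encodes the accessory chain that IL-1 receptors need to signal and changed least of the 7 genes that rose. Its control saline libraries ranged from 4.72 to 7.05 CPM (median 6.36), and the control LPS libraries had 11.1, 11.1, 13.1, 9.45 and 10.7 CPM. MIA saline libraries had 5.87, 4.74, 3.85, 4.13 and 4.26 CPM, and MIA LPS libraries 7.19, 11.8 and 11.1 CPM. The gap between groups was narrow in MIA offspring, where MIA LPS replicate 1 lay just above the highest saline library. The log2 fold change was 0.86 ± 0.17 (SE, edgeR adjusted p = 0.000193) in control and 1.14 ± 0.21 (edgeR adjusted p = 8.29e-05) in MIA offspring. A gene on the opposite strand with 552 shared exonic bases, Gm20319, had 2 counts in all control LPS libraries together and none in the other groups. Soluble Il1rap isoforms, which also restrain IL-1, are counted with the membrane form.

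Il1r2, next to Il1r1 on chromosome 1 (40074079 to 40125231, plus strand), encodes the decoy receptor and had the largest fold change of the 8 genes. In control saline libraries it was at 0 to 0.537 CPM with a median of 0.0291, 10 counts over 6 libraries. The control LPS libraries had 382, 259.7, 415, 329 and 311 CPM. MIA saline libraries had 0.789, 0, 0.135, 0 and 0.133 CPM, whereas MIA LPS libraries had 483, 58.4 and 377 CPM. The control LPS libraries were all high and close together, whereas MIA LPS replicate 2 was far below the other LPS libraries of batch 1 though still far above every saline library. The log2 fold change was 11.46 ± 0.72 (SE, edgeR adjusted p = 1.12e-09) in control offspring, where 2 of 14741 genes had a higher one, and 10.57 ± 0.77 (edgeR adjusted p = 1.08e-08) in MIA offspring, where 6 did. The size of these folds moved with single saline libraries: it was 12.79 without control saline replicate 4 and 11.93 without MIA saline replicate 1. Il1r2 has no exonic overlap with another annotated gene.

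**Figure D2:**
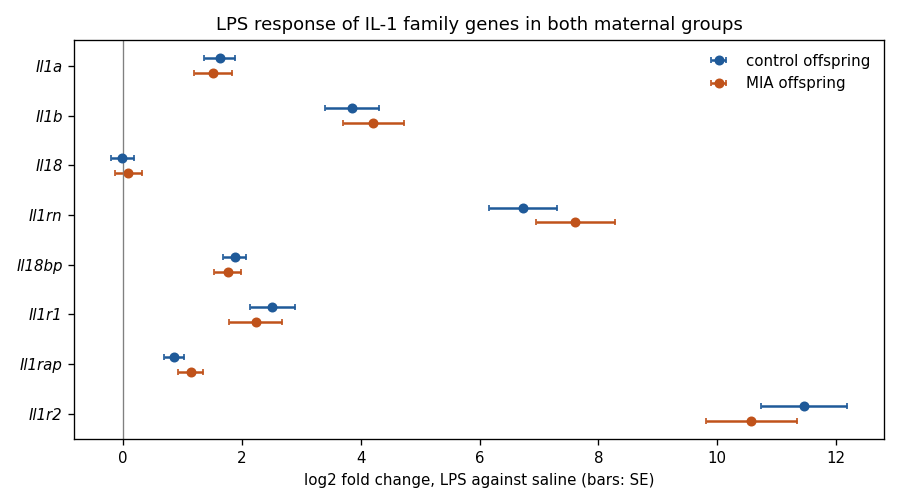
Log2 fold change of LPS against saline for each IL-1 family gene, in control (blue) and MIA (orange) offspring, with bars for the SE. Il18 sits near 0, the other agonists lie between 1.51 and 4.21, and the antagonist and decoy genes Il1rn and Il1r2 lie furthest to the right.

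Il1r2 and Il1rn are abundant in neutrophils and monocytes as well as in activated macrophages, so the neutrophil markers are given beside them. The gate for low CD45 and for P2RY12 is meant to leave such cells out. Transcripts of P2ry12 went from 1974 to 188 CPM in control and from 2050 to 203 CPM in MIA offspring on average. Whether the gate selected alike after saline and LPS was not tested. Without Lcn2 and Mmp9, which other cells induce, the other 12 neutrophil markers summed to between 0 and 19.6 CPM in control saline libraries, 50.05 to 119 CPM in control LPS libraries, 0.203 to 0.466 CPM in MIA saline libraries and 38.4 to 110.6 CPM in MIA LPS libraries. S100a8 and S100a9, among the most abundant neutrophil transcripts, averaged 1.47 and 2.04 CPM in control saline libraries. In control LPS libraries they averaged 20.3 ± 5.68 and 34.2 ± 10.6 CPM (SD, n = 5). Retnlg and Mmp8 had no counts after saline and averaged 1.90 and 2.97 CPM in control LPS libraries, and Cxcr2 went from 0.0659 to 3.25 CPM. All 3 were called higher in both maternal groups. Camp and Ltf changed little in control offspring, from 0.746 to 0.669 CPM and from 0.648 to 0.886 CPM on average. In MIA offspring they had no counts after saline and averaged 0.893 and 1.08 CPM after LPS. Ly6g averaged 0.536 CPM in control LPS libraries, and Mpo and Elane, which mark immature neutrophils, 0.0938 and 0.147 CPM; after saline, Mpo and Elane had no counts in either maternal group, and Ly6g had 4 counts in control offspring and none in MIA offspring. The marker sum ranked the libraries differently from Il1r2 and Il1rn in places and alike in others. The control saline library with the highest sum, 19.6 CPM (replicate 2), had 0.134 CPM of Il1r2 and 0.0668 CPM of Il1rn. That sum held no counts of Retnlg or Mmp8, which every control LPS library had. Its make-up thus differed from the LPS sums, and the same sum need not stand for the same cells. Among the MIA LPS libraries, replicate 3 had the lowest sum, 38.4 CPM, with 377 CPM of Il1r2 and 60.4 CPM of Il1rn. Replicate 2 had a sum of 84.3 CPM with 58.4 CPM of Il1r2 and 107 CPM of Il1rn. The control LPS library with the highest sum, 119 CPM (replicate 4), had the highest Il1rn of its group, 69.8 CPM. Without Fn1 and F13a1, the monocyte markers summed to 3.45 to 6.41 CPM in control saline and 16.9 to 52.1 CPM in control LPS libraries. In MIA offspring these sums were 2.54 to 5.94 CPM after saline and 20.3 to 28.4 CPM after LPS. How much of the Il1r2 or Il1rn response came from neutrophils or monocytes was not tested.

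**Figure D3:**
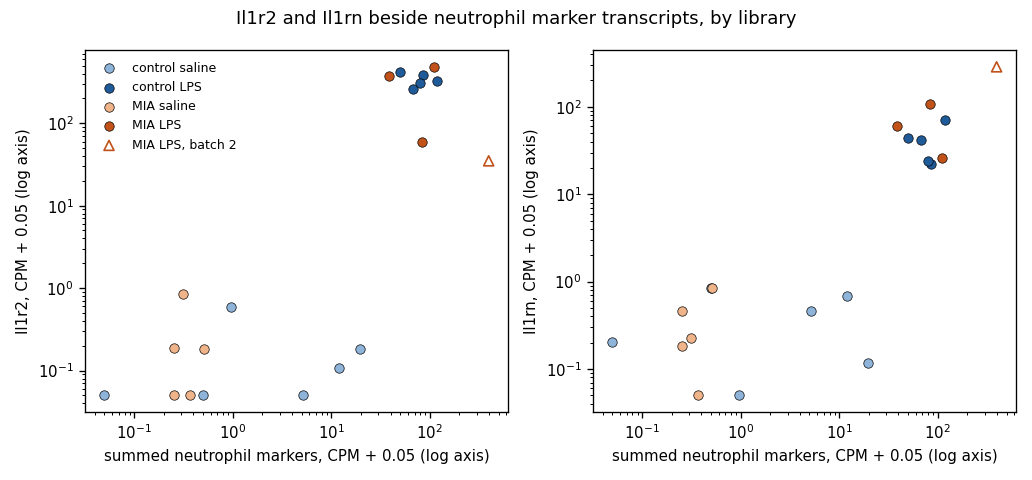
Il1r2 (left) and Il1rn (right) in CPM against the summed CPM of 12 neutrophil markers in every library, both on log axes with 0.05 CPM added; circles are batch 1 libraries coloured by group and the open triangle is the batch 2 library. LPS libraries sit apart from saline libraries on both axes. The saline library furthest to the right has a sum of 19.6 CPM, without counts of Retnlg or Mmp8.

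Levels of different genes were compared per kilobase of merged exon. That length pools all annotated transcripts of a gene, not only those expressed: 1031 bases for Il18, 5535 for Il1rn and 11360 for Il1rap. The order depends on it, since before this division Il1rn averaged 40.4 and Il18 13.4 CPM in control LPS libraries. In control saline libraries the order of mean levels was Il1a at 111 ± 25.8 CPM per kilobase (SD, n = 6), Il18 at 13.1 ± 1.95, Il1b at 8.63 ± 3.63, Il18bp at 1.71 ± 0.40 and Il1rap at 0.537 ± 0.083, followed by Il1r1, Il1r2 and Il1rn at 0.111, 0.0637 and 0.0623. Neighbouring ranges overlapped between Il18 and Il1b and among the last 3 genes, and were apart elsewhere. After LPS in control offspring Il1a was at 343 ± 132 CPM per kilobase (SD, n = 5), Il1r2 at 178 ± 31.9 and Il1b at 125 ± 54.2, and the ranges of these neighbours overlapped. Il18 (13.0 ± 2.53), Il1rn (7.30 ± 3.48) and Il18bp (6.34 ± 0.98) formed a second overlapping set, and Il1rap (0.976 ± 0.115) and Il1r1 (0.629 ± 0.172) came last, each apart from its neighbours. The decoy receptor gene thus moved from among the lowest of the 8 levels to the same range as the IL-1 agonists. MIA offspring had the same order of means in both treatments; there Il18 and Il1b were apart after saline, and Il1rap and Il1r1 overlapped after LPS.

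The balance of antagonist or decoy to agonist or receptor was taken within each library as a log2 ratio of CPM with a prior count of 2, not scaled for gene length, so that it is read between groups and not as a level. Il1rn relative to Il1a averaged -9.09 ± 1.04 (SD, n = 6) in control saline libraries and -4.08 ± 0.81 (SD, n = 5) in control LPS libraries, a difference of 5.01. In MIA offspring it went from -9.47 ± 1.28 (SD, n = 5) to -3.72 ± 1.498 (SD, n = 3), a difference of 5.76, or 4.93 without MIA LPS replicate 2. Every LPS library had a higher ratio than every saline library. Il1rn relative to Il1b shifted less, by 2.69 in control offspring (-5.25 ± 1.04 to -2.56 ± 0.86) and by 3.34 in MIA offspring (-5.28 ± 1.17 to -1.94 ± 2.29). The control groups did not overlap on this ratio, but the MIA groups did: MIA LPS replicate 1, at -3.92, was below MIA saline replicate 5, at -3.87. MIA LPS replicate 2 had the highest batch 1 value, 0.57, and without it the shift in MIA offspring was 2.09. With a prior count of 0.5 the shifts in control and MIA offspring were 5.73 and 6.51 for Il1rn over Il1a and 3.4 and 4.09 for Il1rn over Il1b.

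The decoy receptor relative to the signalling receptor, Il1r2 over Il1r1, rose: -1.83 ± 1.05 to 6.38 ± 0.63 in control offspring and -1.59 ± 1.41 to 5.96 ± 2.09 in MIA offspring. The lowest LPS library, MIA LPS replicate 2, was at 3.55, and the highest saline library, MIA saline replicate 1, at 0.68. Its shift was 8.22 in control offspring, or 9.36 with a prior count of 0.5. In MIA offspring it was 7.55, or 8.49 with that prior and 8.76 without MIA LPS replicate 2. The saline ratios rest on few counts. Il18bp over Il18 rose from -1.37 ± 0.43 to 0.52 ± 0.26 in control and from -1.34 ± 0.46 to 0.37 ± 0.22 in MIA offspring, with no overlap in either. All 4 ratios were therefore higher after LPS in both maternal groups, by the largest amount for the decoy receptor and the smallest for Il18bp. These ratios are descriptions of the libraries and carry no test of their own.

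**Figure D4:**
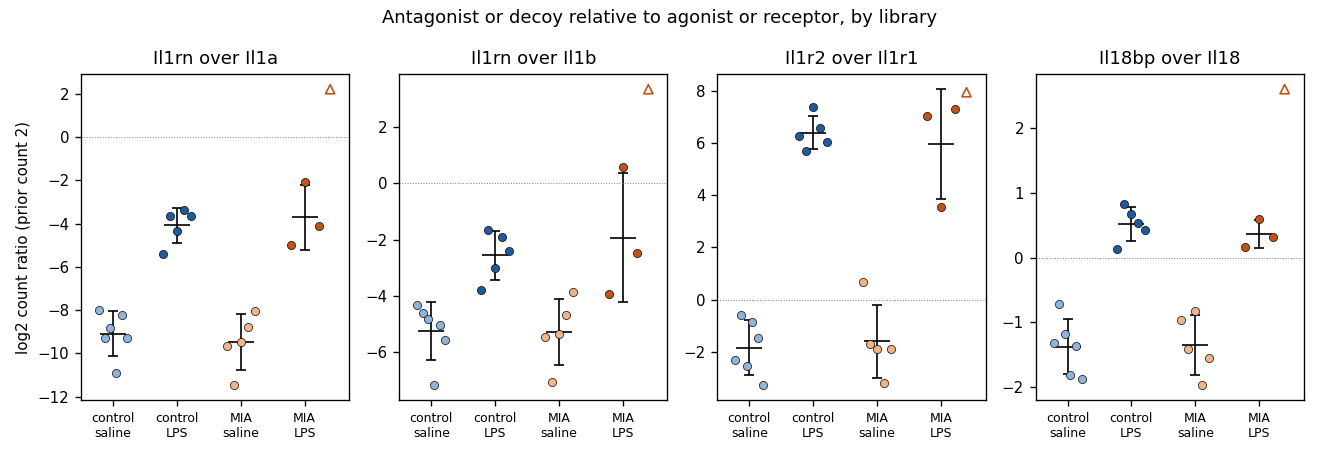
Log2 ratio of antagonist or decoy to agonist or receptor in every library (prior count 2), with each batch 1 group's mean and SD; open triangles are the batch 2 library. LPS group means lie above saline group means in all 4 panels, and the 3 MIA LPS libraries spread most widely for Il1rn over Il1b, from -3.92 to 0.57.

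Whether maternal immune activation altered these genes was asked in 3 ways, and no gene was called in any: the difference between the LPS responses, MIA against control after saline, and MIA against control after LPS. Each of these comparisons called 0 of 14741 genes by edgeR (0% of those tested); 491, 415 and 825 genes had an unadjusted p under 0.05, and DESeq2 called 0, 6 and 0. Among the 8 IL-1 family genes, 0, 1 and 0 had an unadjusted p under 0.05. For the difference between responses (MIA minus control, log2), the intervals were narrowest for Il1rap, 0.28 ± 0.27 (SE; 95% interval -0.30 to 0.86), for Il18, 0.10 ± 0.30 (-0.53 to 0.74) and for Il18bp, -0.12 ± 0.30 (-0.77 to 0.52). Il1a differed by -0.11 ± 0.42 (-0.996 to 0.77), Il1b by 0.36 ± 0.65 (-1.03 to 1.76) and Il1r1 by -0.28 ± 0.59 (-1.55 to 0.99). The intervals for the genes with few saline counts were wide. They ran from -1.47 to 3.24 around 0.89 for Il1rn and from -4.32 to 2.54 around -0.89 for Il1r2. The sign of both estimates depended on the setting: it was -0.43 for Il1rn by limma-voom and 0.46 for Il1r2 without MIA saline replicate 1. Over the alternatives Il1a (-0.49 to 0.16), Il1b (-0.03 to 0.81) and Il18 (-0.30 to 0.38) crossed 0 as well. So did Il18bp (-0.40 to 0.07) and Il1r1 (-0.66 to 0.04), and only Il1rap kept its sign (0.15 to 0.56). The edgeR adjusted p was 0.9999 for each of the 8.

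The single gene with an unadjusted p under 0.05 was Il1rap after saline, which was at 4.57 ± 0.80 CPM (SD, n = 5) in MIA and 6.10 ± 0.95 CPM (SD, n = 6) in control offspring. The log2 difference was -0.42 ± 0.18 (edgeR adjusted p = 1; 95% interval -0.80 to -0.04), and the libraries of the groups overlapped. After LPS the groups differed most in Il1rn, by 0.68 ± 0.46 (edgeR adjusted p = 0.937) with 64.4 ± 40.9 CPM in MIA and 40.4 ± 19.3 CPM in control offspring. Without MIA LPS replicate 2 that difference was 0.10. The same library had the lowest Il1a, Il1b, Il18, Il18bp and Il1r2 of the 3 MIA LPS libraries and the highest Il1rn, Il1r1 and Il1rap. Its astrocyte markers summed to 218 CPM, above the 105 to 147 CPM of the other LPS libraries of batch 1, and its oligodendrocyte markers to 84.3 CPM, the highest of the LPS libraries of batch 1; their part in its values was not tested. With and without it the LPS response of MIA offspring was 4.21 and 4.66 for Il1b, 10.57 and 11.07 for Il1r2 and 7.61 and 7.03 for Il1rn.

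Other genes of the IL-1 pathway were taken from a list grouped by role. Of 6 other family ligands 2 had enough counts to be tested, and 1 rose in both maternal groups: Il36g, an epithelial and myeloid agonist, had 0 counts in every saline library and averaged 0.607 CPM in control and 0.549 CPM in MIA LPS libraries, at least 18.2-fold and 12.5-fold higher when each saline group is given a total of 3 counts (edgeR adjusted p = 0.00134 and 0.00678). Il33, the alarmin, was tested and not called. Of 7 other family receptors 3 were tested and 1 rose in both groups, Il18rap, the accessory chain of the IL-18 receptor. The counts of 1 in 2 ligands and 1 in 3 receptors are near the 44.6% and 39.1% called over all genes. Il18rap went from 0.550 ± 0.870 CPM (SD, n = 6) to 60.3 ± 23.4 CPM (SD, n = 5) in control offspring (6.86 ± 0.53, edgeR adjusted p = 8.73e-09), and from 0.558 to 60.7 CPM in MIA offspring (6.72 ± 0.59, edgeR adjusted p = 7.59e-08). Its partner chain gene Il18r1, which binds IL-18, stayed near 0 with 7 counts over the control LPS libraries and was too low to be tested.

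Among 15 genes listed under processing and release 13 were tested. In control offspring 4 rose (S100a10, Nlrp3, Capn1 and Casp1) and 2 fell (Casp8 and Nlrp1b), and in MIA offspring 3 rose and the same 2 fell. These shares of 6 and 5 in 13 are near the 44.6% and 39.1% called over all genes. Nlrp3, the sensor of the inflammasome that activates caspase-1, went from 117 ± 23.9 to 425 ± 96.8 CPM in control offspring (1.86 ± 0.19, edgeR adjusted p = 1.07e-08). S100a10 rose by 2.78 ± 0.27 in control and 2.34 ± 0.31 in MIA offspring (edgeR adjusted p = 4.60e-09 and 1.12e-06). It was counted where the list placed it, and its part in IL-1 release was not examined. Casp1, named for its role, rose from 27.9 ± 5.16 to 40.9 ± 2.74 CPM in control offspring. The members that fell, Casp8 from 63.4 to 40.9 CPM and Nlrp1b from 45.4 to 22.9 CPM in control offspring, encode a caspase of the extrinsic death pathway and another inflammasome sensor.

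All 19 signalling genes were tested; 6 rose and 2 fell in control offspring, and 7 rose and 0 fell in MIA offspring, again near the shares called over all genes, 44.6% and 39.1%. The largest change was in Irak3, which encodes a kinase-like inhibitor of MyD88 signalling: 2.14 ± 0.59 to 20.8 ± 4.51 CPM in control offspring (3.27 ± 0.25, edgeR adjusted p = 7.47e-11) and 1.91 ± 0.87 to 17.3 ± 7.27 CPM in MIA offspring (3.17 ± 0.29, edgeR adjusted p = 3.65e-09). Peli1, a ubiquitin ligase acting on the IRAK complex, rose by 0.78 and 0.76. Of 10 genes known as targets of IL-1 or NF-kB, 9 rose and none fell in both maternal groups, the exception being Icam1. Over all genes tested, 23.3% (control) and 20.8% (MIA) were called higher. The chemokine gene Cxcl1 rose by 6.29 ± 0.61 and 7.31 ± 0.76 and Cxcl2 by 5.42 ± 0.36 and 5.44 ± 0.41 in control and MIA offspring. LPS itself acts through MyD88 and NF-kB, so an IL-1 signal and the LPS stimulus cannot be told apart in these genes. No gene of these lists was called for a difference between the maternal groups.

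**Figure D5:**
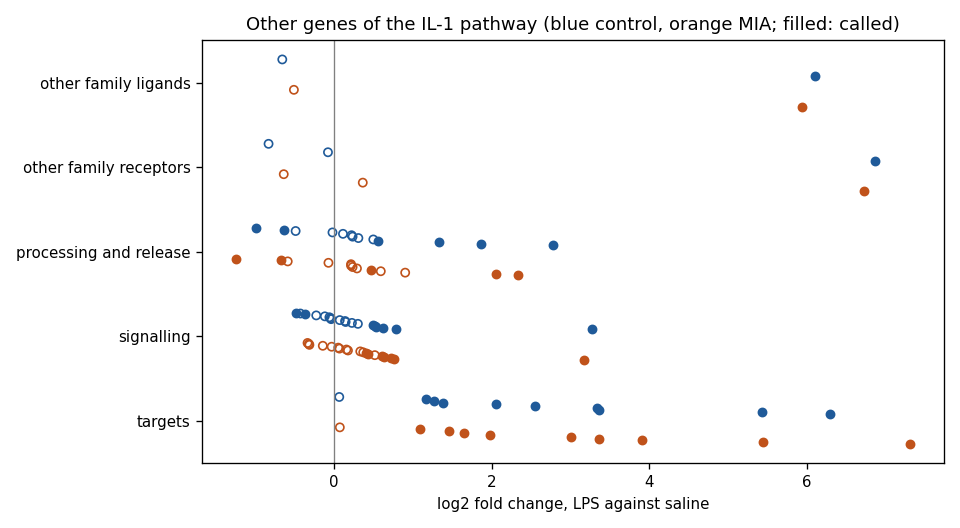
Log2 fold change of LPS against saline for each tested gene of the 5 pathway lists, in control (blue) and MIA (orange) offspring; filled points passed the test and open points did not. Target genes lie mostly above 1, signalling genes cluster around 0 apart from Irak3 at 3.27 and 3.17, and a single gene stands out in each of the upper 2 lists.

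The genes most like each member across the 19 batch 1 libraries were found by the root mean square difference of centred log2 CPM among 6989 candidate genes. Candidates had to reach a minimum mean level over these libraries. Genes near 0 after saline can fall short of it even when high after LPS. Genes that changed like Il1r2 or Il1rn may therefore be missing among the candidates. Il1a was followed most closely by Srm, Plek and Bcl2a1b (0.24, 0.24 and 0.28), and Il1b by Tnf, Bcl2a1d and Tlr2 (0.50, 0.51 and 0.56). For Il1rn the nearest genes were Ifi207, Slc7a11 and Hcar2 (0.88, 0.89 and 0.99), and for Il1r2 Msr1, Saa3 and AW112010, at the larger distances of 1.31, 1.78 and 1.84. Il18bp lay nearest to Lmln, Slc12a4 and Eci2 (0.27, 0.29 and 0.30), Il1r1 to Grk6, Tap1 and Coro1c (0.44, 0.45 and 0.47), Il1rap to Nudcd1, Nmd3 and Mfsd1 (0.20, 0.22 and 0.22), and Il18 to Fcgrt, Stat6 and Mrpl43 (0.18, 0.19 and 0.19). The members were thus nearest to different genes, and Il1r2 had the largest distances, within a candidate set limited in this way.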

How the data were processed

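Bulk sequencing libraries started from 5 ng of RNA, primed with oligo-dT in a modified Smart-Seq2 protocol with 9 PCR cycles, per the labels' protocols; no molecular identifiers are mentioned. The deposited table holds estimated counts per gene, not normalized by the authors; 73018 values (6.27%) were not whole, and all were rounded. Per the submitters' processing notes the tools were RSEM, STAR and DESeq2, with no versions; the sources used here give no build, annotation or strand setting. Of 55487 identifiers, 55141 matched GENCODE M21 (GRCm38) with the version left off, including all 8 genes.

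edgeR 4.0.16 in R 4.3.3 fitted group plus batch on 20 libraries (TMM, filterByExpr, robust quasi-likelihood, 15 residual degrees of freedom), testing 14741 genes that held 99.9% of counts, at a Benjamini-Hochberg adjusted p under 0.05. The batch term took up the single batch 2 library, so contrasts rest on batch 1. Levels are CPM with TMM scaling, except in the library titled excluded. Each SE of a log2 fold change is its absolute value divided by the square root of the F statistic of its test. The 95% intervals combine that SE with the 15 residual degrees of freedom, so they are approximate, above all for genes with few counts. DESeq2 1.42.0 and limma-voom (limma 3.58.1), other scalings, filters, blocks and leaving out each library were alternatives. The fit was tested on simulated data. No 2 libraries of a group agreed within sampling noise (lowest chi-square over degrees of freedom 9.58). Total counts were 11.9 to 19.0 M (control saline), 9.85 to 18.1 (control LPS), 10.2 to 15.7 (MIA saline) and 13.0 to 17.1 (MIA LPS).

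The members and all gene lists were chosen with earlier results of these data known. Named were all 8 members, from each pathway list the 2 called genes with the largest absolute change in control offspring, and the 3 genes most like each member; other genes were named for their role or after their values were seen. Replicate numbers did not pair the libraries: same-numbered deviations correlated at 0.03 to 0.11 in control and -0.14 to 0.09 in MIA offspring.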

Additional observations from a re-analysis of the deposited data

Results flagged for a closer look

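Among 36 groups of values examined for a library far from the rest of its group, 3 were found. Chance gives about 1 in 20 for normally distributed values, a rate that need not hold for genes with few counts. Il1a in MIA saline replicate 2 was at 405.9 CPM, where the other 4 libraries of the group were between 197 and 253 CPM. Il1r2 in control saline replicate 4 was at 0.537 CPM (7 counts), and in MIA saline replicate 1 at 0.789 CPM (9 counts). Each was above the other saline libraries of its group, which were at 0 to 0.135 CPM.

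The single batch 2 library, MIA LPS replicate 4, entered no group mean, and 5 of the 8 genes were above all saline libraries there: Il1rn at 287 CPM, Il1r2 at 34.9 CPM, Il1b at 28.2 CPM, Il1rap at 19.1 CPM and Il18bp at 16.1 CPM. Its Il1rn was the highest of any library and its Il1r2 the lowest of any LPS library. Il1a, at 61.8 CPM, and Il18, at 2.52 CPM, were below every other library, and Il1r1 had no count. The 12 neutrophil markers summed to 396 CPM in it, above the 38.4 to 119 CPM of the batch 1 LPS libraries, and 12264 genes had a count; the part of either in these values was not tested.

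In the library titled excluded, which had 5.29 M counts, Il1rn was at 1.33 CPM, above the 0.790 CPM of the highest control saline library.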

How the results depend on the processing

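Under every alternative run, including RLE and upper quartile scaling, no ribosomal RNA genes, no filter, DESeq2, limma-voom, no batch term, batch 2 left out, the excluded library kept and each of 19 libraries left out, 7 family genes were called in both LPS comparisons and 0 in the other comparisons, and no call or called direction of a family gene changed. The closest to the threshold was Il1a in MIA offspring without a batch term (edgeR adjusted p = 0.0487; 4.75e-06 to 0.0487 over its alternatives). The shift of Il1r2 over Il1r1 in control offspring was 9.36 with a prior count of 0.5 instead of 8.22. Over all genes the split into higher and lower in control offspring, 3439 and 3141, turned to 3019 and 3578 with RLE, 2957 and 3654 with upper quartile scaling and 3122 and 3741 by DESeq2. With a replicate block, although the numbers do not pair the libraries, 6295 and 5540 genes were called in control and MIA offspring, against 6580 and 5765, and 7 family genes in each; with the second ID number as a block, which cannot be fitted for MIA against control after saline or after LPS, 5755 and 5684 were called, again with 7 family genes in each. Few saline counts of Il1r2 and Il1rn (10 and 34 in control offspring) limit the size of their folds, and 3 MIA LPS libraries limit the maternal comparisons. Intervals cover the spread between libraries, not litters.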
